A study of Drosophila melanogaster with 8 samples.

Results

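The proteasome genes described here were chosen by name: every gene whose current FlyBase symbol starts with *Prosalpha* or *Prosbeta*, or with *Rpt* or *Rpn* and a digit. This rule gave 48 genes, of which 45 were found by identifier among the 14256 genes of the count table. All 45 had enough reads to be tested. They comprise 14 testis isoforms, whose symbols end in T or R (as *Prosalpha6T*, *Prosbeta2R1* and *Rpt3R*), and 31 general subunits. For 11 general subunits at least 1 testis isoform was measured, and for 20 none was. This split of the general subunits was made after their values were seen. *Prosalpha1*, *Prosalpha1R* and *Prosalpha4T1* matched no identifier and are not analysed here.

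The proteasome is the protease complex that degrades proteins tagged with ubiquitin. Its barrel-shaped core has outer rings of alpha subunits, which gate entry, and inner rings of beta subunits, of which beta1, beta2 and beta5 cut proteins. A regulatory cap sits on the core: its Rpt ATPases unfold the substrate and open the gate, and its Rpn subunits bind ubiquitin, remove it or hold the cap together. In *Drosophila melanogaster* many of these subunits have a duplicate gene used in the male germline, late in spermatogenesis, and one of them, *Prosalpha6T*, is needed for sperm formation and male fertility.

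RNA-seq of whole adult testes at 5 days of age was read in 4 libraries, each made from 1 pair of testes. In *Tj>E(Pc) shRNA* males (*Tj-Gal4/+; UAS-E(Pc) shRNA/+*, 2 libraries) the *traffic jam* driver expresses a hairpin against *Enhancer of Polycomb* in somatic gonadal cells, chiefly the cyst cells that enclose the germ cells, and hub cells. *Tj-Gal4* males (2 libraries) carry the driver without the hairpin. How many copies of the driver the *Tj-Gal4* males carry is not given in the sources used here. Most RNA of a testis comes from germ cells, in which this driver does not act. In whole testes, fewer cells of a type and less RNA per cell cannot be told apart.

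Counts summed to 6251181 (replicate 1) and 3691459 (replicate 2) in *Tj>E(Pc) shRNA*, against 3307767 and 4273908 in *Tj-Gal4*. The labels could not be checked by the targeted gene. *E(Pc)* read 39.8 and 33.5 cRPKM in libraries carrying the *Tj>E(Pc) shRNA* label, against 27.0 and 27.2 cRPKM in *Tj-Gal4*, with a log2 fold change of 0.44, its standard error (SE) 0.18 and an adjusted p of 0.083 by the quasi-likelihood test of edgeR. It was thus not lower in the libraries labelled as knockdown, and each direction given below rests on the labels. Genes of the cyst lineage and the early germline are given with the marker lists. cRPKM is the authors' corrected value per kilobase of exon and library size, and serves here for levels. Changes are log2 fold changes of *Tj>E(Pc) shRNA* over *Tj-Gal4*, fitted to the counts, and a gene is called where its adjusted p over all 11163 genes tested is under 0.05. Replicates are separate pairs of testes. The p-values of the fits rest on 2 libraries a genotype, with the spread of each gene estimated partly from the other genes.

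Read coverage is given first. No gene of the table exceeded 1 count per base of exon, and the highest gene of each library lay between 0.924 and 0.965. No source used here states that reads at the same position were counted once for these libraries, and why the counts stay below this value was not tested. The proteasome genes are densely read: their mean coverage ran from 0.171 to 0.688 counts per base, with a median of 0.519, against a median of 0.125 over all genes tested. Between *Tj>E(Pc) shRNA* replicates 1 and 2 the totals differed 1.69-fold, while the raw counts of the 45 genes differed by a median of 1.41-fold. An alternative that assumes each count to be an occupied position and converts it to reads is given below as "converted".

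Median fitted changes of the testis isoforms and of their general counterparts had opposite signs. All 14 testis isoforms had negative fitted changes (median -0.42 on the log2 scale), and 5 were called lower and 0 higher (10 and 0 at an unadjusted p under 0.05). The 31 general subunits had a median of -0.20, the same sign as the isoforms. Of these 31, 21 had negative fitted changes, and 3 were called higher and 0 lower. The general subunits were split by testis isoform after their values were seen. Of the 11 that have a testis isoform, 8 had positive fitted changes, and the median of the 11 was 0.36. Among these 11, 3 were called higher and 0 lower (5 and 0 at an unadjusted p under 0.05). Of the 20 without a testis isoform, 18 had negative fitted changes with a median of -0.25, and 0 were called by edgeR in either direction (0 at an unadjusted p under 0.05, and 0 by DESeq2). Over all genes tested 22.5% were called higher and 11.4% lower, and the median change was 0.00. These shares are for the adjusted p. Counts at an unadjusted p under 0.05, here and below, have no share over all genes beside them and cannot be set against these. Both *Tj>E(Pc) shRNA* libraries lay below both *Tj-Gal4* libraries in scaled counts for 12 of 14 isoforms (33.8% over all genes), and above both for 8 of the 11 counterparts (38.9% over all genes). Among genes as densely read as 13 of the 14 isoforms this was common: 835 of 1159 genes from 0.4 to 0.6 counts per base of exon and 482 of 766 from 0.6 upward lay below both controls. Negative fitted changes were found for 1072 of the 1159 and 762 of the 766 genes. From 0.2 to 0.4 counts per base, where 7 of the 11 counterparts lie, 592 of 2064 genes lay above both.

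**Figure D1:**
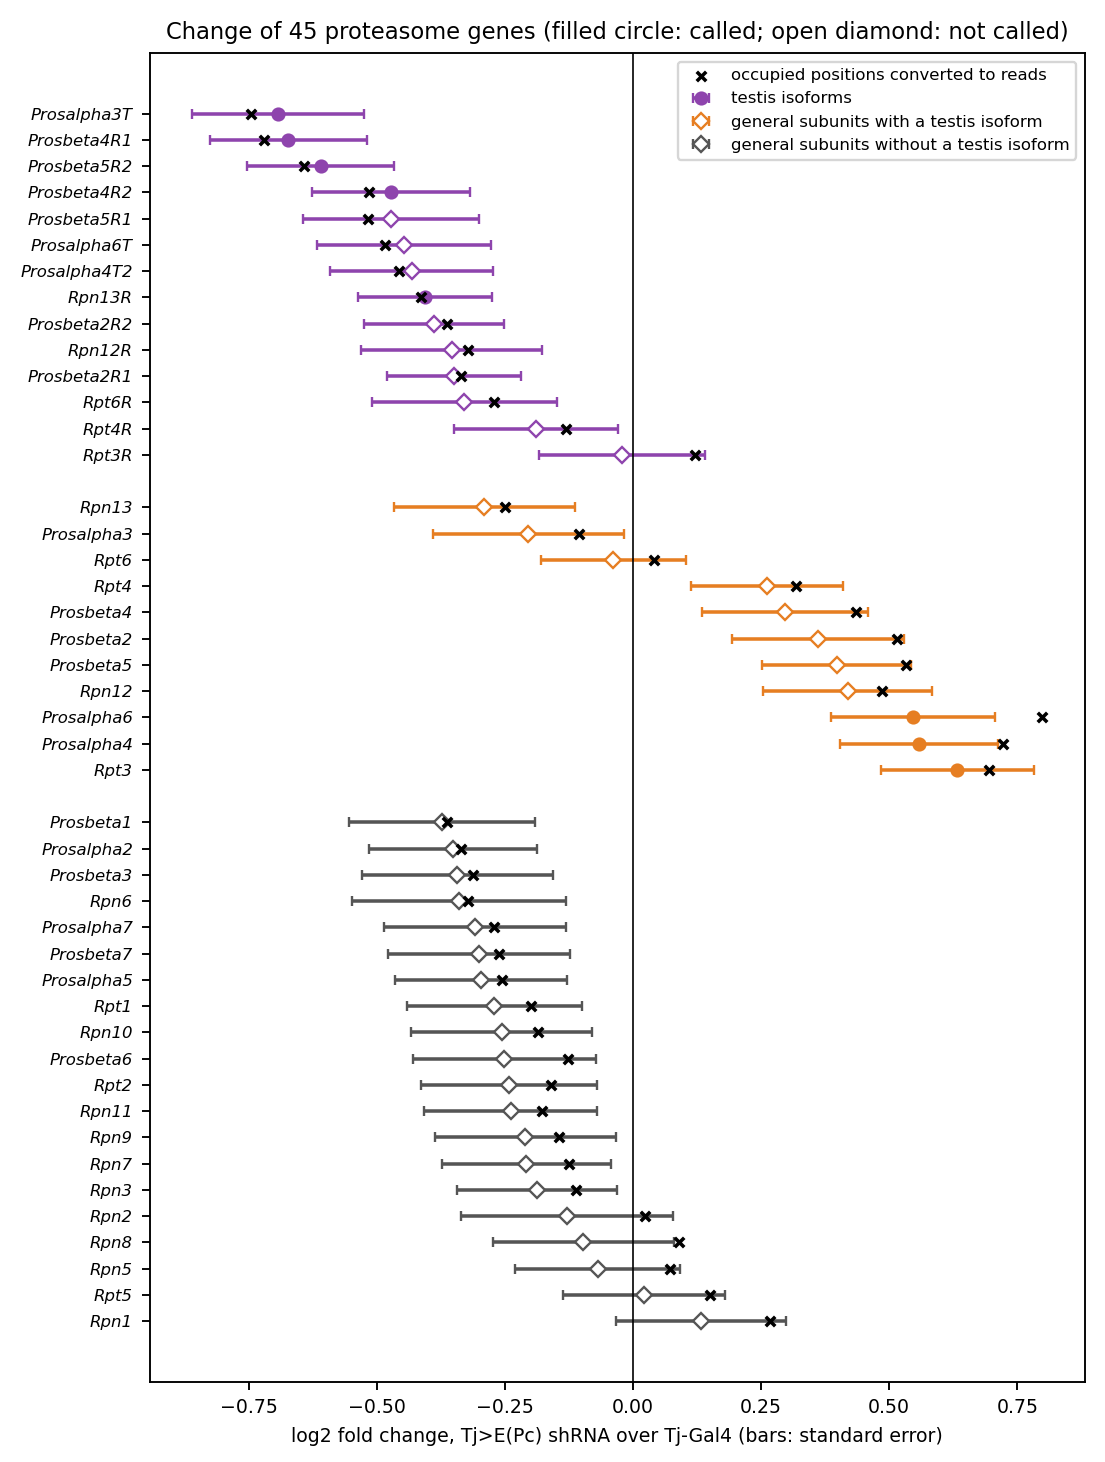
Log2 fold change (horizontal axis, *Tj>E(Pc) shRNA* over *Tj-Gal4*) of 45 proteasome genes with its standard error as bars, for testis isoforms (top), general subunits with a testis isoform (middle) and without (bottom). Filled circles are called genes, open diamonds genes not called, and crosses the change with counts converted to reads; the 14 isoforms lie below 0, and 8 of 11 counterparts above it.

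The alpha ring isoforms read lower in each *Tj>E(Pc) shRNA* library than in either control. *Prosalpha3T* (FBgn0261395, chromosome 3R) had 45.2 and 32.6 cRPKM in *Tj>E(Pc) shRNA*, against 67.8 and 59.5 cRPKM in *Tj-Gal4*. It had the lowest level of the 14 isoforms and the largest fall, with a log2 fold change of -0.69 (SE 0.17, edgeR adjusted p = 0.0114). *Prosalpha4T2* (FBgn0017556, chromosome 2R) had 100.1 and 126 cRPKM in *Tj>E(Pc) shRNA*, against 160.0 and 145 cRPKM in *Tj-Gal4*. *Prosalpha6T* (FBgn0032492, chromosome 2L), the isoform needed for fertility, had 110.3 and 146 cRPKM in *Tj>E(Pc) shRNA*, against 187 and 163 cRPKM in *Tj-Gal4*. In both genes the groups did not overlap, but neither was called: the log2 fold changes were -0.43 (SE 0.16, edgeR adjusted p = 0.0577) and -0.45 (SE 0.17, edgeR adjusted p = 0.0644).

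Their general counterparts differed among themselves. *Prosalpha4* (FBgn0004066, chromosome X) had 66.9 and 87.5 cRPKM in *Tj>E(Pc) shRNA*, against 49.8 and 54.5 cRPKM in *Tj-Gal4*. It rose, with a log2 fold change of 0.56 (SE 0.15, edgeR adjusted p = 0.0203). *Prosalpha6* (FBgn0250843, chromosome 2L) had 86.4 and 115 cRPKM in *Tj>E(Pc) shRNA*, against 64.1 and 73.0 cRPKM in *Tj-Gal4*, and rose by a similar amount, 0.55 (SE 0.16, edgeR adjusted p = 0.0258). *Prosalpha3* (FBgn0261394, chromosome 2R) had 100.3 and 149 cRPKM in *Tj>E(Pc) shRNA*, against 153 and 134 cRPKM in *Tj-Gal4*. Its groups overlapped and its change of -0.20 (SE 0.19) was not called. At a coverage of 0.606 counts per base it was the most densely read of the 11 counterparts.

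Among the catalytic beta subunits, beta2 cuts after basic residues and beta5 after hydrophobic ones, and each has a pair of testis isoforms. *Prosbeta5R2* (FBgn0051742, chromosome 2L) had 91.1 and 77.7 cRPKM in *Tj>E(Pc) shRNA*, against 135 and 124 cRPKM in *Tj-Gal4*. This isoform fell by 0.61 on the log2 scale (SE 0.14, edgeR adjusted p = 0.00998). *Prosbeta5R1* (FBgn0034842, chromosome 2R) had 112 and 145 cRPKM in *Tj>E(Pc) shRNA*, against 192 and 163 cRPKM in *Tj-Gal4*, with a change of -0.47 that was not called (SE 0.17, edgeR adjusted p = 0.056). The general subunit *Prosbeta5* (FBgn0029134, chromosome 2R) had 65.8 and 81.6 cRPKM in *Tj>E(Pc) shRNA*, against 58.2 and 53.6 cRPKM in *Tj-Gal4*. The groups did not overlap, and the change of 0.40 was not called (SE 0.14, edgeR adjusted p = 0.0568).

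The beta2 genes had the same arrangement with smaller differences. *Prosbeta2R1* (FBgn0029812, chromosome X) had 81.5 and 88.8 cRPKM in *Tj>E(Pc) shRNA*, against 111 and 106 cRPKM in *Tj-Gal4*. *Prosbeta2R2* (FBgn0037296, chromosome 3R) had 82.5 and 77.3 cRPKM in *Tj>E(Pc) shRNA*, against 110.3 and 99.5 cRPKM in *Tj-Gal4*. Neither isoform overlapped between groups, and their changes of -0.35 and -0.39 had adjusted p of 0.061 and 0.0502 (edgeR, SE 0.13 and 0.14). *Prosbeta2* (FBgn0023174, chromosome 3L) had 70.5 and 100.4 cRPKM in *Tj>E(Pc) shRNA*, against 65.2 and 67.1 cRPKM in *Tj-Gal4*. The groups of this general subunit did not overlap, but the *Tj>E(Pc) shRNA* libraries lay further from each other than the lower of them from the controls, and its change of 0.36 was not called.

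Beta4 is a structural subunit of the inner ring. Its isoform genes *Prosbeta4R1* and *Prosbeta4R2* lie near each other on chromosome 2L with *Or23a* listed between them. *Prosbeta4R1* (FBgn0031442) had 79.5 and 61.4 cRPKM in *Tj>E(Pc) shRNA*, against 119 and 108 cRPKM in *Tj-Gal4*, and fell by 0.67 on the log2 scale (SE 0.15, edgeR adjusted p = 0.00886). *Prosbeta4R2* (FBgn0031443) had 68.3 and 84.9 cRPKM in *Tj>E(Pc) shRNA*, against 114 and 98.3 cRPKM in *Tj-Gal4*, and fell by 0.47 (SE 0.15, edgeR adjusted p = 0.0385). The general *Prosbeta4* (FBgn0032596, chromosome 2L) had 71.1 and 95.4 cRPKM in *Tj>E(Pc) shRNA*, against 63.1 and 71.2 cRPKM in *Tj-Gal4*. Its lower *Tj>E(Pc) shRNA* library was level with the higher control in cRPKM and above it in scaled counts, and the change of 0.30 was not called.

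The ATPase isoforms had the smallest fitted changes. *Rpt3R* (FBgn0037742, chromosome 3R) had 93.3 and 122 cRPKM in *Tj>E(Pc) shRNA*, against 109 and 109 cRPKM in *Tj-Gal4*, so the controls lay between the *Tj>E(Pc) shRNA* libraries. *Rpt4R* (FBgn0036224, chromosome 3L) had 83.8 and 109 cRPKM in *Tj>E(Pc) shRNA*, against 113 and 107 cRPKM in *Tj-Gal4*, and overlapped as well. *Rpt6R* (FBgn0039788, chromosome 3R) had 111 and 148 cRPKM in *Tj>E(Pc) shRNA*, against 172 and 152 cRPKM in *Tj-Gal4*. None of these genes was called, with log2 fold changes of -0.02, -0.19 and -0.33 and adjusted p of 0.932, 0.362 and 0.168 (edgeR). The sign for *Rpt3R* turned positive with scaling by library size alone (0.046) and with counts converted to reads (0.12).

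Their general counterparts all lie on chromosome X. *Rpt3* (FBgn0028686) had 39.2 and 46.9 cRPKM in *Tj>E(Pc) shRNA*, against 25.4 and 29.7 cRPKM in *Tj-Gal4*. It had the lowest level of the general subunits and the largest rise of the 45 genes, 0.63 (SE 0.15, edgeR adjusted p = 0.0101). *Rpt4* (FBgn0028685) had 45.9 and 58.4 cRPKM in *Tj>E(Pc) shRNA*, against 41.8 and 44.7 cRPKM in *Tj-Gal4*, a change of 0.26 (SE 0.15, edgeR adjusted p = 0.18). For *Rpt6* (FBgn0020369) the values overlapped, with 72.1 and 82.9 cRPKM in *Tj>E(Pc) shRNA* and 84.7 and 74.6 cRPKM in *Tj-Gal4*. Of the 11 counterparts 4 are on chromosome X, of the testis isoforms 2, and of the general subunits without an isoform 0. Over all 1771 X-linked genes tested 30.7% were called higher and the median change was 0.21. The called genes *Rpt3* and *Prosalpha4* are X-linked, and the called *Prosalpha6* is not. The part of chromosome X in these changes was not tested.

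In the rest of the cap, Rpn12 belongs to the lid and Rpn13 is a ubiquitin receptor. *Rpn13R* (FBgn0029745, chromosome X) had 81.4 and 88.1 cRPKM in *Tj>E(Pc) shRNA*, against 114 and 110.4 cRPKM in *Tj-Gal4*, and fell by 0.41 on the log2 scale (SE 0.13, edgeR adjusted p = 0.0375). Its counterpart *Rpn13* (FBgn0033886, chromosome 2R) did not oppose it, with 91.8 and 120.2 cRPKM in *Tj>E(Pc) shRNA*, against 139 and 121 cRPKM in *Tj-Gal4*, and a change of -0.29 that was not called. *Rpn12R* (FBgn0036465, chromosome 3L) had 108 and 149.8 cRPKM in *Tj>E(Pc) shRNA*, against 178 and 151 cRPKM in *Tj-Gal4*. *Rpn12* (FBgn0028693, chromosome 3L) had 46.8 and 58.9 cRPKM in *Tj>E(Pc) shRNA*, against 34.9 and 43.4 cRPKM in *Tj-Gal4*. Neither Rpn12 gene was called, with changes of -0.35 for *Rpn12R* (adjusted p = 0.137) and 0.42 for *Rpn12* (adjusted p = 0.0711, both from edgeR).

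**Figure D2:**
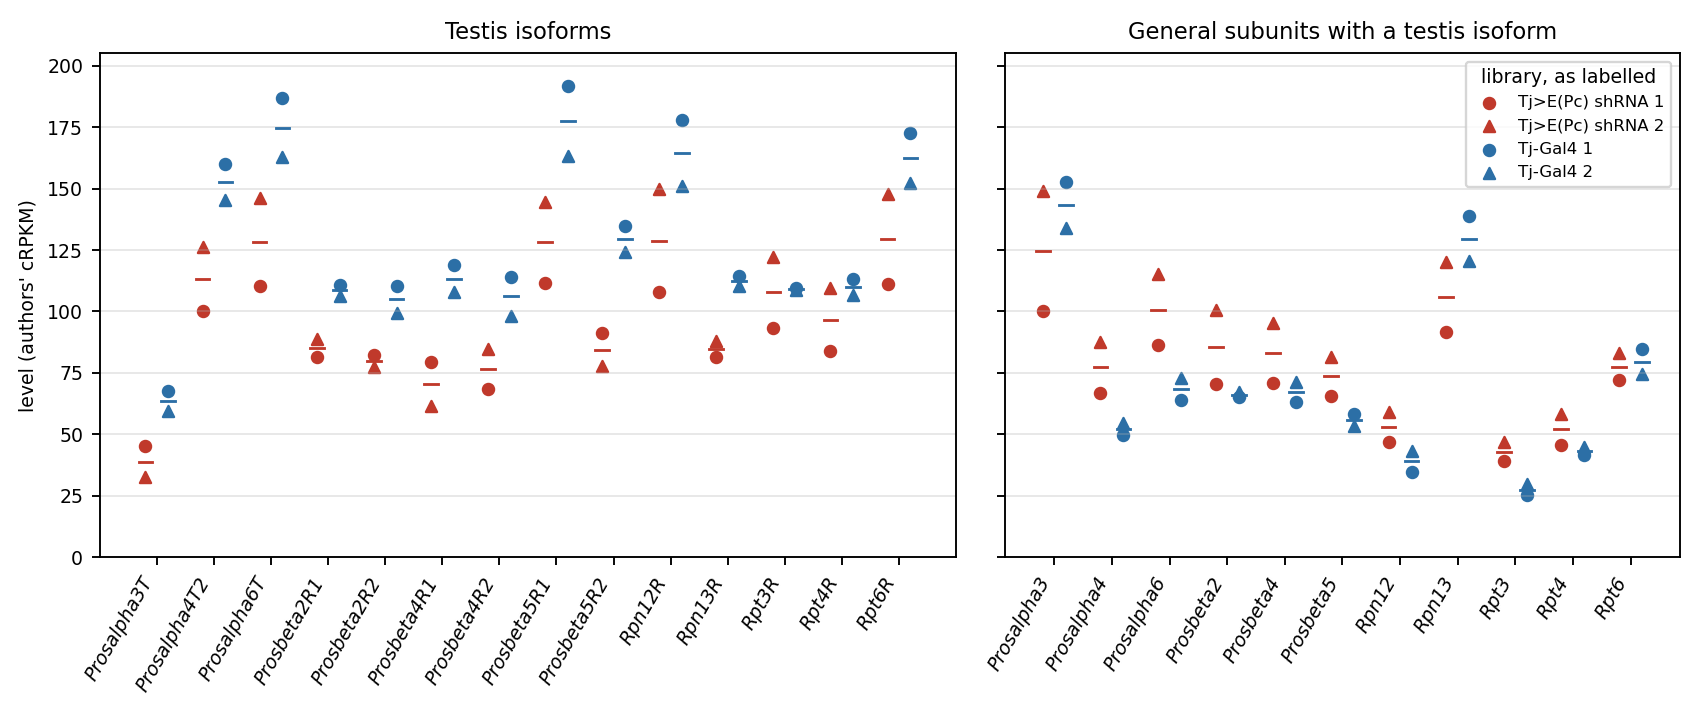
Level in the authors' cRPKM (vertical axis, from 0) of each testis isoform (left) and each general subunit that has one (right) in *Tj>E(Pc) shRNA* (red, left of each pair) and *Tj-Gal4* (blue) libraries; circles are replicate 1, triangles replicate 2 and bars the mean of 2 libraries. *Prosalpha3T* is the lowest isoform, at 45.2 and 32.6 against 67.8 and 59.5, and *Rpt3* the lowest counterpart, at 39.2 and 46.9 against 25.4 and 29.7.

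The isoforms did not fall alike in the *Tj>E(Pc) shRNA* libraries. In *Prosalpha3T*, *Prosbeta4R1*, *Prosbeta5R2* and *Prosbeta2R2*, replicate 2 read lower than replicate 1 in cRPKM, and their raw counts differed between these replicates by 2.52, 2.35, 2.14 and 1.95, more than the totals (1.69). In the other 10 isoforms replicate 2 read higher in cRPKM. Of the 4 with the lower replicate 2, all but *Prosbeta2R2* were called lower. The 5 isoforms with more than 0.6 counts per base (*Prosalpha4T2*, *Prosalpha6T*, *Prosbeta5R1*, *Rpn12R* and *Rpt6R*) had raw ratios of 1.33 to 1.46 and none was called.

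Within a library, the share of an isoform in the sum of isoform and counterpart, both in counts per base, does not depend on how libraries are scaled. In *Tj-Gal4* the isoform was read more than its counterpart in 12 of 14 pairs in both libraries. In *Tj>E(Pc) shRNA* it was in 11 pairs of replicate 1 and 7 pairs of replicate 2. The mean share was lower in *Tj>E(Pc) shRNA* in all 14 pairs, by a median of -12.3 percentage points, with differences from -17.0 to -1.86. Both *Tj>E(Pc) shRNA* libraries lay below both *Tj-Gal4* libraries in 13 pairs, each with p = 0.33 in an exact two-sided permutation test, the smallest that 2 libraries against 2 allow. Taken singly, *Tj>E(Pc) shRNA* replicate 1 had a share below both controls in 13 of 14 pairs, and replicate 2 in 14. The pairs share counterparts (*Prosbeta2*, *Prosbeta4* and *Prosbeta5* each enter 2 pairs) and libraries, and are not independent. The isoform is the more densely read gene of most pairs, and fitted changes over all genes differ with coverage. Their median was -0.37 from 0.4 to 0.6 counts per base and -0.10 from 0.2 to 0.4. Shares of other gene pairs are not given as a background, and the part of coverage in the shares was not tested.

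The pair with the largest difference was *Prosbeta4R1* with *Prosbeta4*, whose isoform share was 52.4% and 39.3% in *Tj>E(Pc) shRNA*, against 65.3% and 60.3% in *Tj-Gal4*. *Prosbeta5R2* made up 57.8% and 48.8% of its pair in *Tj>E(Pc) shRNA*, against 69.8% and 69.8% in *Tj-Gal4*. In these pairs the share fell further in replicate 2 than in replicate 1. For *Prosalpha6T* the *Tj>E(Pc) shRNA* libraries gave the same share, 56.1% and 56.0%, against 74.5% and 69.1% in *Tj-Gal4*. For *Prosalpha4T2* the shares were 59.9% and 59.1% in *Tj>E(Pc) shRNA*, against 76.3% and 72.8% in *Tj-Gal4*. Here the spread between libraries of a genotype was small beside the difference between genotypes.

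At the other end, *Rpn13R* made up 46.9% and 42.3% of its pair in *Tj>E(Pc) shRNA*, against 45.2% and 47.8% in *Tj-Gal4*, the only pair whose groups overlapped in counts per base (exact two-sided permutation p = 0.667). *Prosalpha3T* made up 30.7% and 18.0% in *Tj>E(Pc) shRNA*, against 30.8% and 30.8% in *Tj-Gal4*. Its lower share rests on replicate 2, since replicate 1 was within 0.1 percentage points of the controls. The ATPase isoforms differed by -4.76 (*Rpt6R*), -6.88 (*Rpt4R*) and -8.54 (*Rpt3R*) percentage points. With counts converted to reads the median difference over the 14 pairs was -13.5, and with cRPKM in place of counts per base it was -12.2. By cRPKM, 12 pairs lay below both controls and 2 overlapped, *Rpn13R* and *Prosalpha3T*. The cRPKM share of *Prosalpha3T* in *Tj>E(Pc) shRNA* replicate 1 was 31.1%, against 30.8% and 30.8% in *Tj-Gal4*.

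**Figure D3:**
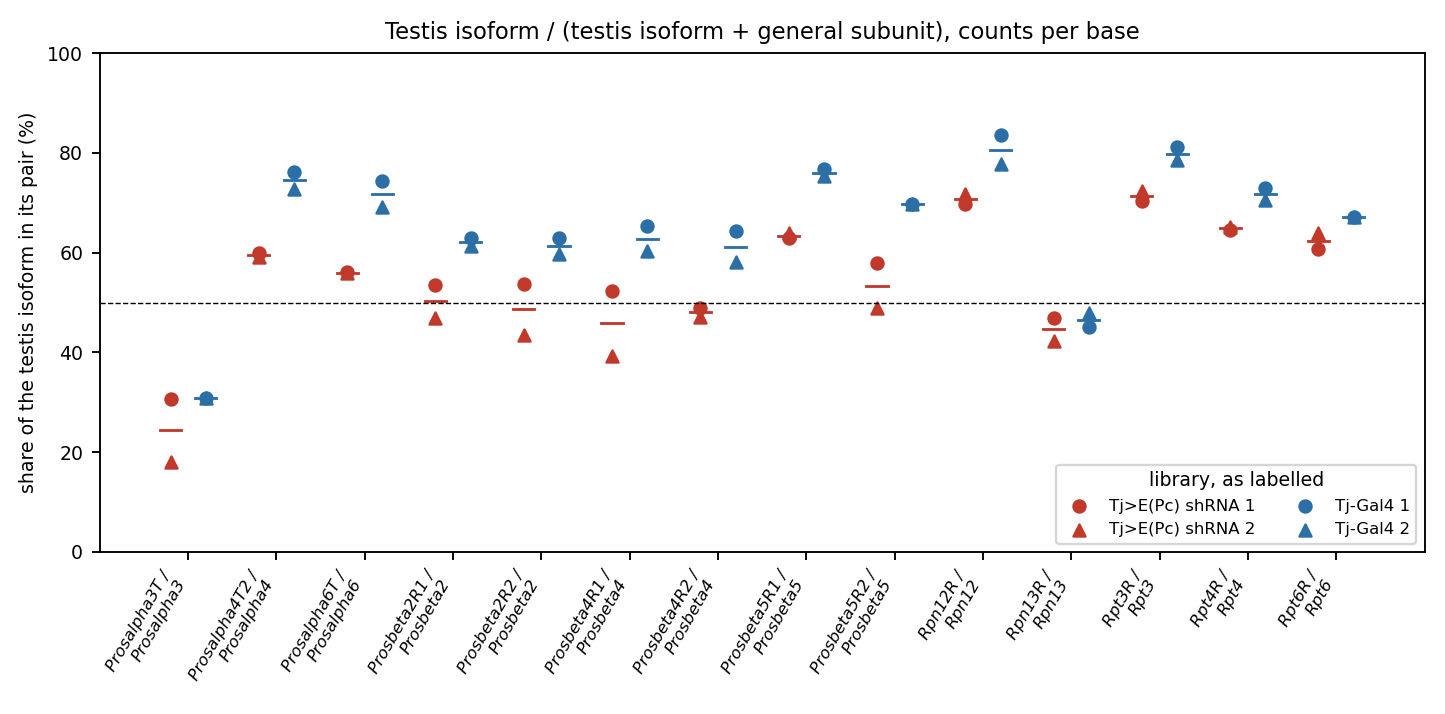
Share of the testis isoform in the sum of isoform and general subunit (vertical axis, percent of counts per base within a library) for 14 pairs in *Tj>E(Pc) shRNA* (red, left of each pair) and *Tj-Gal4* (blue) libraries; circles are replicate 1, triangles replicate 2, bars the mean and the dashed line equal reads. The red points lie below the blue ones in 13 of 14 pairs, with *Rpn13R* as the exception.

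General subunits without a testis isoform were read at higher levels than those with one. Their median level was 98.6 and 133 cRPKM in *Tj>E(Pc) shRNA* replicates 1 and 2 and 145 and 126 cRPKM in *Tj-Gal4* replicates 1 and 2, while the counterparts had medians of 70.5 and 87.5 cRPKM in *Tj>E(Pc) shRNA* and 63.1 and 67.1 cRPKM in *Tj-Gal4*. In the controls the medians of the testis isoforms were 117 and 109.7 cRPKM. The lowest subunit without an isoform was *Rpn1*, at 79.8 and 73.4 cRPKM in *Tj-Gal4*.

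The largest negative fitted changes in this class were those of core subunits. *Prosbeta1*, the catalytic subunit that cuts after acidic residues, had 105 and 151 cRPKM in *Tj>E(Pc) shRNA*, against 180.1 and 149.8 cRPKM in *Tj-Gal4* (log2 fold change -0.37, SE 0.18, edgeR adjusted p = 0.129). *Prosalpha2*, of the outer ring, had 93.0 and 124 cRPKM in *Tj>E(Pc) shRNA*, against 149 and 127 cRPKM in *Tj-Gal4*. *Prosbeta3*, a structural core subunit, had 109 and 161 cRPKM in *Tj>E(Pc) shRNA*, against 184 and 158 cRPKM in *Tj-Gal4*. In these genes *Tj>E(Pc) shRNA* replicate 2 was close to *Tj-Gal4* replicate 2, and the low value was that of the deepest library. The lid subunit *Rpn6* had 103 and 150.0 cRPKM in *Tj>E(Pc) shRNA*, against 171 and 148 cRPKM in *Tj-Gal4*, and *Prosalpha7* had 102 and 146 cRPKM in *Tj>E(Pc) shRNA*, against 161 and 145 cRPKM in *Tj-Gal4*. The changes of these 4 genes were between -0.35 and -0.31.

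The largest fitted changes in the other direction were small. *Rpn1*, a scaffold of the cap that binds ubiquitin, had 79.4 and 88.5 cRPKM in *Tj>E(Pc) shRNA*, against 79.8 and 73.4 cRPKM in *Tj-Gal4* (log2 fold change 0.13, SE 0.17). *Rpt5*, an ATPase, had 85.6 and 109 cRPKM in *Tj>E(Pc) shRNA*, against 97.5 and 93.7 cRPKM in *Tj-Gal4* (log2 fold change 0.02). The next were *Rpn5*, *Rpn8* and *Rpn2*, with -0.07, -0.10 and -0.13. *Rpn5*, of the lid, had 95.6 and 113 cRPKM in *Tj>E(Pc) shRNA*, against 113 and 107 cRPKM in *Tj-Gal4*. *Rpn8*, the partner of the deubiquitinase Rpn11, had 108 and 142 cRPKM in *Tj>E(Pc) shRNA*, against 143 and 124 cRPKM in *Tj-Gal4*. *Rpn2*, a scaffold, had 104 and 133 cRPKM in *Tj>E(Pc) shRNA*, against 141 and 119 cRPKM in *Tj-Gal4*. For these 3 genes the signs turned positive with counts converted to reads (0.072, 0.090 and 0.024). The remaining 10 subunits of this class (*Prosalpha5*, *Prosbeta6*, *Prosbeta7*, *Rpn3*, *Rpn7*, *Rpn9*, *Rpn10*, *Rpn11*, *Rpt1* and *Rpt2*) had log2 fold changes from -0.30 to -0.19.

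Set against genes of similar coverage, the classes differ in how far they stand from their surroundings. From 0.6 counts per base upward, all 766 genes tested had a median change of -0.43, with 0 called higher and 12.4% lower, and the 5 isoforms there had a median of -0.43 with 0 called lower. From 0.4 to 0.6 counts per base, 1159 genes had a median of -0.37, with 0.345% called higher and 28.0% lower. The 8 isoforms there had a median of -0.40, and 4 were called lower. The 14 subunits without an isoform there had a median of -0.22. From 0.2 to 0.4 counts per base, 2064 genes had a median of -0.10, with 8.96% called higher and 15.0% lower, and 7 counterparts had a median of 0.36 with 1 called higher. *Rpt3*, at 0.171 counts per base, lies among 2260 genes from 0.1 to 0.2 counts per base, of which 36.2% were called higher and 5.93% lower. *Prosalpha6*, at 0.404 counts per base, was among the 4 genes called higher from 0.4 to 0.6, and *Prosalpha3T*, at 0.237, was the only isoform below 0.4. No test of a class against genes of its coverage was made.

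**Figure D4:**
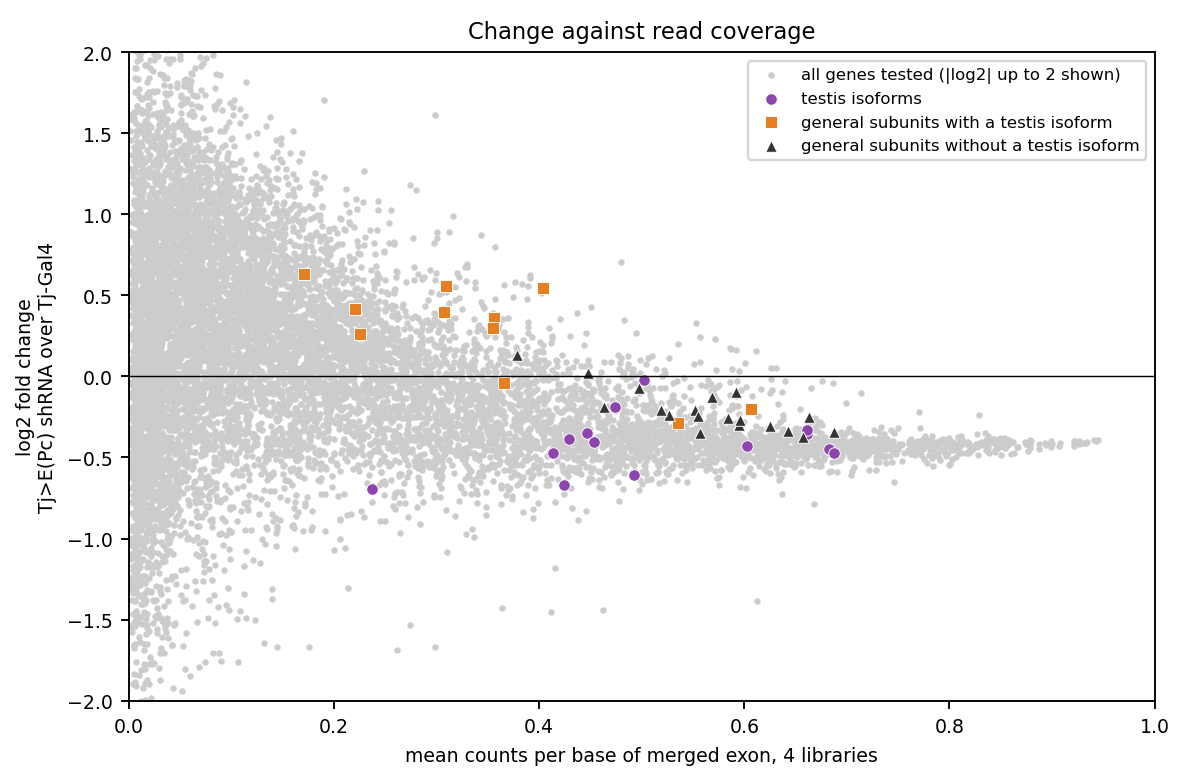
Log2 fold change (vertical axis, *Tj>E(Pc) shRNA* over *Tj-Gal4*; genes beyond 2 in either direction are outside the frame) against mean counts per base of merged exon over 4 libraries (horizontal axis) for all genes tested (grey), testis isoforms (purple circles), general subunits with a testis isoform (orange squares) and without (black triangles). Above 0.6 counts per base genes gather near the median of -0.43, where 5 isoforms lie, and 8 counterparts lie above 0 at 0.171 to 0.404 counts per base.

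The class medians of isoforms and counterparts kept opposite signs with counts converted to reads and without *Tj>E(Pc) shRNA* replicate 1. The median of all 31 general subunits was -0.11 with converted counts and 0.00029 without that replicate. In both fits the medians over all genes still changed with coverage, whose part was not tested. With counts converted to reads, 10 isoforms were called lower (20.0% over all genes tested) and 7 counterparts higher (27.1%), with medians of -0.44 and 0.49, and the 8 called genes kept their calls. In that setting 46.3% of genes from 0.4 to 0.6 counts per base were called lower (median -0.37), and 61.0% from 0.6 upward (median -0.47). From 0.2 to 0.4 counts per base 17.1% were called higher (median -0.06), and from 0.1 to 0.2 the median was 0.32. Without *Tj>E(Pc) shRNA* replicate 1, the deepest library, 5 isoforms were called lower (15.2% over all genes) and 8 counterparts higher (23.1%), with medians of -0.29 and 0.55, and the median of subunits without an isoform was -0.06. In that fit all genes from 0.1 to 0.2 counts per base had a median of 0.26, and those from 0.2 to 0.4, where 7 of the counterparts lie, -0.06. Those from 0.4 to 0.6 had -0.21, and those from 0.6 counts per base upward -0.17. Without *Tj>E(Pc) shRNA* replicate 2, 13 isoforms, 14 subunits without an isoform and 2 counterparts were called lower, and 3 counterparts higher (23.0% of all genes lower and 28.5% higher). Without *Tj-Gal4* replicate 1 0 of the 45 genes were called by edgeR (10.6% of all genes higher and 4.11% lower), with 3 isoforms lower and 1 counterpart higher at an unadjusted p under 0.05. Without *Tj-Gal4* replicate 2 the calls were 2 isoforms lower and 1 counterpart higher (3.95% of all genes lower and 14.8% higher). DESeq2 called 3 isoforms lower (6.49% of all genes) and 0 counterparts higher (13.0%), or 9 lower and 3 higher at an unadjusted p under 0.05. The isoform's fitted change lay below its counterpart's in 14 of 14 pairs under each of these settings except without *Tj>E(Pc) shRNA* replicate 2, with 13.

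Factors that assemble, regulate or accompany the proteasome were mostly not called. Of 17 such genes tested, 2 were called higher and 1 lower (22.5% and 11.4% over all genes tested), with a median of -0.20. *CG8858*, which encodes the fly relative of the proteasome adaptor Ecm29, averaged 147 ± 9.14 CPM in *Tj>E(Pc) shRNA* and 72.4 ± 1.65 CPM in *Tj-Gal4* (SD, n = 2 each), CPM being counts scaled by library, and rose by 1.02 (SE 0.13, edgeR adjusted p = 0.000575). At 0.088 counts per base it lies among 4914 genes below 0.1, of which 30.7% were called higher and 8.34% lower. *CG9588*, a relative of a cap assembly chaperone, rose by 0.38, and *CG12321* fell by 0.47 on the log2 scale. Genes that act with the proteasome in the removal of cytoplasm from spermatids were not called: *ntc*, an F-box protein, had a change of -0.45 (SE 0.20), *PI31*, a proteasome regulator, -0.39 (SE 0.19), and *Duba*, a deubiquitinase, -0.38 (SE 0.22). *Uch-L5R*, the relative of the cap deubiquitinase gene *Uch-L5*, and *Uch-L5* had changes of -0.37 and -0.38, neither called.

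Among regulators of proteasome gene expression, *cnc*, whose product activates proteasome genes in flies under stress, had a change of 0.09 and its partner *maf-S* one of -0.21, neither called. *Keap1*, which restrains that factor, averaged 21.6 ± 2.61 CPM in *Tj>E(Pc) shRNA* and 6.03 ± 0.361 CPM in *Tj-Gal4* (SD, n = 2 each), a rise of 1.84 (SE 0.27). It had 18 and 27 counts in *Tj-Gal4*. At 0.020 counts per base it too lies among genes of which 30.7% were called higher. Of 20 genes of ubiquitin and its first enzymes, 2 were called higher and 1 lower (22.5% and 11.4% over all genes tested), with a median of -0.09. The risen genes, *Uba2* (0.83) and *Aos1* (0.61), encode the enzyme that activates the related modifier SUMO rather than ubiquitin, and *Ubc10*, a conjugating enzyme, fell by 0.41 on the log2 scale. The ubiquitin genes *Ubi-p63E* and *Ubi-p5E* had -0.49 and -0.35 and were not called. These lists were written with earlier results of these data known.

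Markers of germ cell stages and other cell types were read in the same libraries, in which 22.5% of all genes tested were called higher and 11.4% lower. Of 6 early germline genes tested 4 were called higher (median 1.57), the largest rises being *ovo* (3.21), *zpg* (2.05) and *bam* (1.62), and the summed level of the list was 558 and 560.0 CPM in *Tj>E(Pc) shRNA*, against 365 and 343 CPM in *Tj-Gal4*. *ovo*, *zpg* and *bam*, at 0.0098, 0.0965 and 0.0585 counts per base, lie among genes of which 30.7% were called higher. Of 12 spermatid genes 3 were called lower (median -0.45), the chromatin protein genes *ProtA* (-0.60) and *ProtB* (-0.53) and *fzo* (-0.55), a gene of mitochondrial fusion, with sums of 1163 and 1687 CPM in *Tj>E(Pc) shRNA*, against 2209 and 1730.1 CPM in *Tj-Gal4*. The other 9 overlapped between groups, and the list's median is close to that of all genes from 0.6 counts per base upward (-0.43). *ProtA* and *ProtB*, at 0.406 and 0.480 counts per base, lie among genes of which 28.0% were called lower. *fzo*, at 0.615, lies among genes of which 12.4% were. The spermatocyte list had 4 of 10 genes called higher (median 0.11), led by *comr* (0.71), *tomb* (0.67) and *can* (0.62), and its sums overlapped, at 1211 and 1404 CPM in *Tj>E(Pc) shRNA* and 1503 and 1303 CPM in *Tj-Gal4*. In the cyst lineage list *zfh1* rose (0.65) and *so* fell (-1.38) among 5 genes, *eya* had 0.0081 and was not called, with sums of 676 and 601 CPM in *Tj>E(Pc) shRNA*, against 519 and 522 CPM in *Tj-Gal4*. Muscle genes summed to 248 and 250.4 CPM in *Tj>E(Pc) shRNA*, against 304 and 287 CPM in *Tj-Gal4* (*Act57B* called lower of 3 tested), and fat body genes to 22.2 and 14.5 CPM in *Tj>E(Pc) shRNA*, against 13.8 and 10.7 CPM in *Tj-Gal4* (*Lsp2* called higher of 2 tested, with *Fbp1* at 0 in the controls). The spermatid genes are covered at a median of 0.72 counts per base, above each isoform, and the early germline genes at 0.128. The part of germ cell stages and other tissues in the proteasome results was not tested.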

How the data were processed

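Per the labels and the paper's methods, total RNA of whole testes was read in single-end runs (50 nt). The authors used Bowtie 0.12.7 to align to dm3 (up to 2 mismatches and 1 alignment site) and deposited counts per gene over merged exons, without normalization. They also deposited RPKM values (cRPKM) from edgeR pseudo-counts, for 11773 genes. Reads that fit several places were dropped, so close paralogs may read low. Per the paper, reads of overlapping genes were split between them, though all deposited counts are whole numbers. Of the 45 genes, 19 overlap another gene's span in the RefSeq release 6 table, among them *Prosbeta4R2* and *Rpn13R*. The counting is not stated to use strand. The 4 ChIP-seq samples are not analysed here, and no sequences are shown.

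Symbols were matched by FlyBase identifier (13564 of 14256 genes). Counts were compared with edgeR 4.0.16 in R 4.3.3 (filterByExpr, TMM factors, quasi-likelihood test, Benjamini-Hochberg over 11163 genes). DESeq2 1.42.0, limma 3.58.1 on log2(cRPKM + 1) or log2(cRPKM + 0.1) where mean cRPKM reached 1, upper-quartile factors, library size alone, no filter, at least 10 counts in every library, a replicate block, each library left out in turn, and conversion of occupied positions to reads (coverage limited to 0.98 counts per base) were alternatives; a crossed block was added after the data were seen. Where a genotype keeps 1 library, it is assumed to vary like the other. Each fit except the crossed block was run on simulated data. For converted counts the simulation built in the same relation of reads to occupied positions that the conversion assumes, so it could not test that assumption. All isoforms and counterparts are named, of other general subunits the 5 largest changes each way, and of each list the called genes with the 3 largest rises and falls; other listed genes were named after their values were seen. The members and lists were chosen with earlier results of these data known.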

Additional observations from a re-analysis of the deposited data

How the results depend on the processing

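Counts of called genes depended on the processing more than signs did. Testis isoforms called lower numbered 3 with DESeq2, 9 with upper-quartile factors, 10 with occupied positions converted to reads, 1 with limma on log2(cRPKM + 1) and 0 with limma on log2(cRPKM + 0.1), where 4 passed at an unadjusted p under 0.05. Counterparts called higher numbered 0 with DESeq2, 5 without a filter on low counts, 7 with converted counts and 0 with either limma setting, where 3 passed at an unadjusted p under 0.05. Over all genes, 14.0% were called lower with upper-quartile factors, 4.53% and 2.86% with the limma settings (16.7% and 13.8% higher), and 19.4% higher without a filter.

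Leaving out 1 library at a time gave 0 to 13 isoforms called lower, 0 to 8 counterparts called higher, 0 to 2 counterparts called lower and 0 to 14 subunits without an isoform called lower, with class medians of -0.50 to -0.29, 0.11 to 0.55 and -0.45 to -0.063 on the log2 scale. No gene of the 45 was called without *Tj-Gal4* replicate 1. Most isoforms and subunits without an isoform were called lower without *Tj>E(Pc) shRNA* replicate 2, and most counterparts higher without replicate 1. The cause was not tested.

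Whether the replicate numbers pair the libraries could not be told. Deviations from the genotype means correlated at -0.25 between libraries of the same number over 11163 genes. Between libraries of the other number the value is the same with its sign turned, as it must be with so few libraries. With the replicate block, 3 isoforms were called lower and 3 counterparts higher, and 6 of the 8 called genes kept their calls (18.9% of all genes higher and 7.95% lower). The crossed block, chosen after the data were seen, called 12 isoforms, 1 counterpart and 7 subunits without an isoform lower and 6 counterparts higher (28.6% of all genes higher and 27.0% lower).

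Signs turned only in genes that were not called by edgeR with all 4 libraries. With converted counts the changes were 0.12 (*Rpt3R*), 0.041 (*Rpt6*), 0.024 (*Rpn2*), 0.090 (*Rpn8*) and 0.072 (*Rpn5*). With library size alone they were 0.046 (*Rpt3R*), 0.035 (*Rpt6*) and 0.00086 (*Rpn5*), and with DESeq2 *Rpt5* had -0.030. With 1 library left out they ranged from -0.21 to 0.16 (*Rpt3R*), -0.13 to 0.061 (*Rpt6*), -0.49 to 0.057 (*Prosalpha3*), -0.31 to 0.039 (*Rpn2*), -0.29 to 0.089 (*Rpn8*), -0.19 to 0.047 (*Rpn5*) and -0.15 to 0.18 (*Rpt5*), and *Rpn9* reached 0.00029 without *Tj>E(Pc) shRNA* replicate 1. With 1 library left out, the median difference of isoform shares lay between -13.4 and -9.95 percentage points.

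With 2 libraries a genotype, an exact test of a single pair cannot fall below p = 0.33. The counts stay below 1 per base, and how far this limits densely read genes was not tested.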

Other observations

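Of the 7 subunits measured of the CCT chaperonin, which folds actin and tubulin, 4 were called higher by edgeR (22.5% over all genes tested), with a median log2 fold change of 0.56. *CCT1* averaged 163 ± 27.3 CPM in *Tj>E(Pc) shRNA* and 104 ± 5.18 CPM in *Tj-Gal4* (SD, n = 2 each), a rise of 0.64 (SE 0.16). *CCT6*, *CCT3* and *CCT7* rose by 0.63, 0.59 and 0.56. The summed level of the list was 1250.2 and 1624 CPM in *Tj>E(Pc) shRNA*, against 1023 and 988 CPM in *Tj-Gal4*. Its median coverage was 0.388 counts per base, close to that of the proteasome counterparts, at 0.355.

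Of 25 genes of cullin ubiquitin ligases and the COP9 signalosome, which removes the modifier Nedd8 from cullins, 6 were called higher and 1 lower, with a median of -0.01. The share called higher is near that over all genes tested (22.5%), of which 11.4% were called lower. The largest rises were those of *SkpE* (1.03, SE 0.19), *Cul4* (0.94, SE 0.14) and *SkpC* (0.87, SE 0.18). The related adaptor gene *SkpB* fell by 0.45 on the log2 scale (SE 0.15). *Cul4*, a ligase scaffold, averaged 148 ± 14.4 CPM in *Tj>E(Pc) shRNA* and 76.7 ± 3.72 CPM in *Tj-Gal4* (SD, n = 2 each). *Cul3* and *klhl10*, which form a ligase of late spermatids, had changes of -0.37 (SE 0.25) and -0.45 (SE 0.17) and were not called. The lists were written with earlier results of these data known.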
